A study of Mus musculus with 17 samples.

Results

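The set holds 9 genes, chosen by symbol, of the 18836 genes listed in at least 1 library: the cadherins Cdh1, Cdh2 and Cdh11, the transcription factors Snai1, Snai2, Twist1, Zeb1 and Zeb2, and the matrix protein gene Fn1. All 9 were listed in each of the 17 libraries, and 8 passed the expression filter of the tests (a mean of at least 1 FPKM, a count of fragments scaled by transcript length and library size, over the 16 cultured libraries). Cdh1, with a mean of 0.607 FPKM, did not pass, and its tests come from a separate fit with no filter on low values.

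The libraries were from mouse neural retinal progenitor cells (mNRPCs) of strain C57BL/6, derived from the neural retina of adult mice and amplified in medium that held both bFGF and CHIR99021. BM is the basic medium, a serum-free DMEM/F12 medium with N2, B27 and beta-mercaptoethanol. The 4 treatments were BM alone, B (BM with bFGF, basic fibroblast growth factor), C (BM with CHIR99021, an inhibitor of the kinase GSK-3) and BC (BM with both). Each was sampled on days 1, 3, 5 and 7, and 1 library was a day 0 control, labelled as having no treatment. The paper describes day 0 both as cells in BM and as the state before treatment, so what it stands for is not certain. Each treatment and day is 1 library, so there are no replicates: the spread behind every test below is the departure of the libraries from the fitted effects, not the spread between cultures. Total expected counts ran from 17571973 to 19428744 per library.

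Classical cadherins join neighbouring cells through their extracellular domains and are tied to actin inside the cell by catenins. Cdh1 (E-cadherin) is typical of epithelia, Cdh2 (N-cadherin) of neural tissue including retina and its progenitors, and Cdh11 (OB-cadherin) of mesenchyme. The zinc finger factors Snai1, Snai2, Zeb1 and Zeb2 bind E-box DNA and are known as repressors of Cdh1. Twist1 is a basic helix-loop-helix factor. Fn1 encodes fibronectin, a matrix glycoprotein bound by integrins and often produced by mesenchymal cells.

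Promoter windows were found for 3 of the 9 genes in RefSeq (build GRCm38.p6), and those of Snai1 and Twist1 are shown because these factors went opposite ways with bFGF. Each line gives the 250 bases before the transcription start, on the plus strand, at chr2:167537945-167538194 for Snai1 and chr12:33957421-33957670 for Twist1. Capitals mark the E-box CACCTG, the form bound by Snail and ZEB factors.
Snai1: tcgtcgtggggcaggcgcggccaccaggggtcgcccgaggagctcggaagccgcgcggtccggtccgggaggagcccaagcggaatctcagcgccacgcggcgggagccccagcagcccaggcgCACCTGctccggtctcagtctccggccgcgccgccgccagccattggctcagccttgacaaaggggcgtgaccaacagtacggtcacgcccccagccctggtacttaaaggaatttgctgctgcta
Twist1: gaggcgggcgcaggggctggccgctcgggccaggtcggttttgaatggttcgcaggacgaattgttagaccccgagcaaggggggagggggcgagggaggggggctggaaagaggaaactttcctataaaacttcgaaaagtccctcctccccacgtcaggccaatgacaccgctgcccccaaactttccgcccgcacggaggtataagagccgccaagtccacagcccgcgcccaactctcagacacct
The Snai1 window held 1 CACCTG, which begins at position -126 from the start, and the Twist1 and Zeb2 windows held none. In all, 17.2% of 32851 windows of this length hold that motif on either strand, and 66.2% hold CANNTG, the wider pattern that includes it and of which the Snai1 window has no further copy. CTTTGA (the core of TCF sites, in 13.8% of windows), TGANTCA (AP-1, in 6.75%) and CCGGAAG (ETS, in 6.91%) were in none of these 3 windows.

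The identity of the cells was checked against marker genes. Pax6, Six3, Sox2, Nes and Hes1 were at 4.63 FPKM or more in every library, whereas Rax and Six6, which also define retinal progenitors, did not pass 0.07 FPKM in any. Lhx2, of the same list, was 0.29 FPKM on day 0, 0.79 to 2.35 FPKM without bFGF and 0.04 to 0.78 FPKM with it. Of 21 genes listed as epithelial, 19 stayed under 1 FPKM throughout, and the exceptions were the tight junction genes Cldn1 and Tjp1. The mesenchymal list was the more abundant, with 16 of 19 genes reaching 1 FPKM in at least 1 library. The cells therefore carried few epithelial transcripts in every medium and on day 0, where Cdh1 was 0.06 FPKM and Cdh2 45.9 FPKM. The mesenchymal list was uneven on day 0. Vim, also in the list of Mueller glia markers, was 2990 FPKM and Acta2 24.6 FPKM, while Postn and Col1a1 were 0.11 FPKM each. Fn1 was 0.35 FPKM.

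The first question was how these genes stood with and without bFGF. Cdh11, Snai1, Zeb1, Cdh2 and Zeb2 were lower with bFGF over days 1 to 7, Snai2 and Twist1 were higher, and Fn1 passed on single days but not over all of them. By edgeR, 7 of the 8 tested genes passed an adjusted p of 0.05, 2 higher and 5 lower, but so did 68.4% of all 11272 genes (34.6% higher and 33.9% lower), so the count alone does not set them apart. On the FPKM as deposited (limma on log2(FPKM + 1)) the 7 genes kept their directions, while the calls over all genes split into 2267 higher and 5700 lower, against 3896 and 3817 by edgeR. The median log2 fold change of the 8 genes was -0.38, against 0.00 over all genes tested. In bulk RNA, fewer cells of a type and less RNA per cell cannot be told apart.

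**Figure D1:**
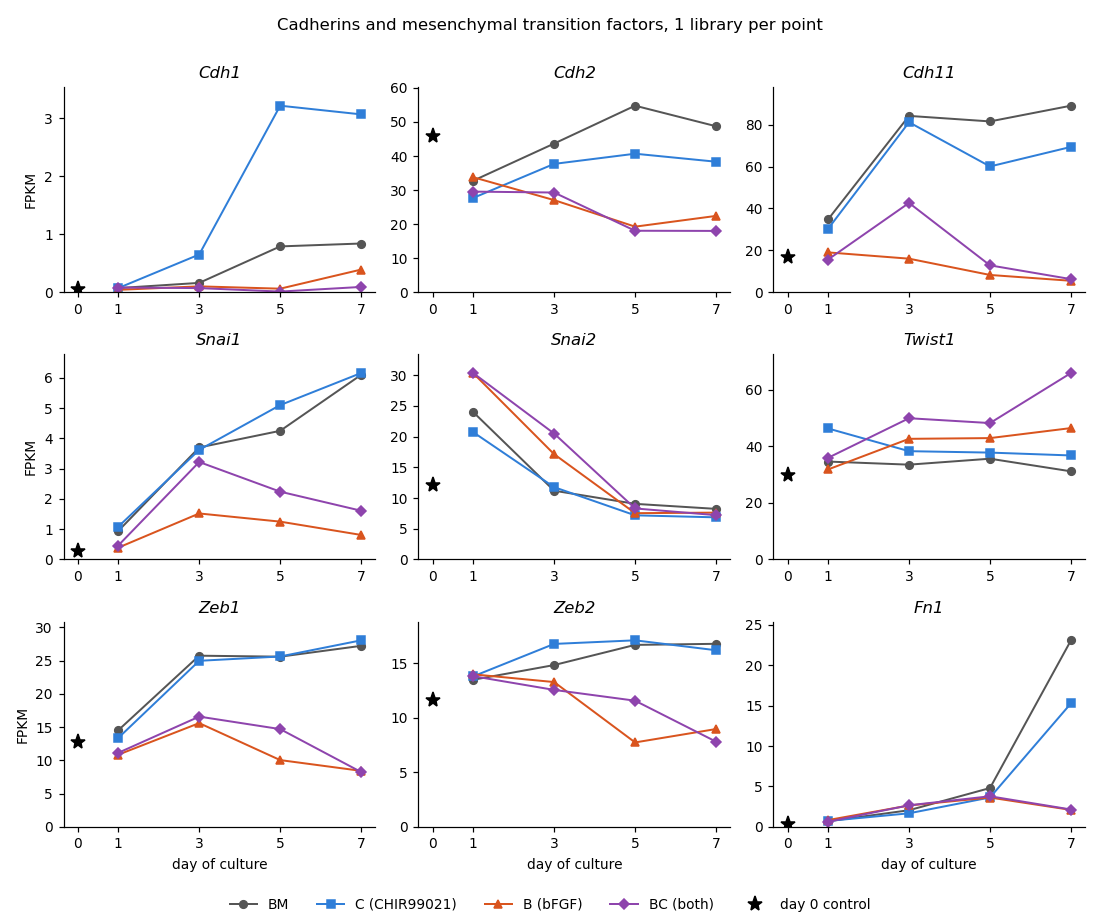
FPKM (vertical axes, linear from 0) of the 9 genes by day of culture (horizontal axes), 1 library per point, with BM in grey circles, C in blue squares, B in orange triangles, BC in purple diamonds and the day 0 control as a star. From day 3 on, Cdh2, Cdh11, Snai1, Zeb1 and Zeb2 lie lower in both media with bFGF and Twist1 lies higher, Cdh1 reaches 3.22 FPKM in C alone, and Fn1 rises to 23.1 FPKM in BM on day 7.

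Cdh11 showed the largest bFGF difference among the tested genes. In BM it was 34.7, 84.2, 81.5 and 89.1 FPKM on days 1, 3, 5 and 7. In C it was 30.2, 81.2, 60.0 and 69.4 FPKM on the same days. Both media without bFGF thus stood above the day 0 value of 16.6 FPKM at each time. In B it was 19, 16, 8.21 and 5.43 FPKM. In BC it was 15.6, 42.6, 12.8 and 6.22 FPKM, and the day 3 value is the only one of the 4 above day 0. The bFGF log2 fold change was -1.94 ± 0.324 (SE, adjusted p = 0.000423). In FPKM, Cdh11 was lower with bFGF in 8 of 8 pairs of libraries matched for day and CHIR99021. The median gene was also lower in each of these pairs, by -0.01 to -0.59 in log2(FPKM + 1). Relative to the median gene, Cdh11 was lower by -0.81 to -3.26. The gene lies at chr8:102632095-102785493.

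The difference in Cdh11 widened with time. It was -0.83 ± 0.341 on day 1 (adjusted p = 0.143), -1.43 ± 0.343 on day 3 (0.00435), -2.32 ± 0.356 on day 5 (7.04e-05) and -3.24 ± 0.372 on day 7 (5.2e-06), all as log2 fold changes. The test that bFGF differences vary between days passed for Cdh11 (adjusted p = 0.00368). The day 3 value rests on single libraries, since it was -2.30 without the BC library of that day and -0.82 without the B library. On day 1 the call appeared when either of these was left out (adjusted p = 0.0177 without BC day 3 and 0.0148 without B day 3). Pdgfrb and Pax6 were also high in BC on day 3, at 31.9 and 82.3 FPKM against 18.5 and 33.8 in B, and their part in that value was not tested.

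Cdh2 moved less. It was 32.7, 43.6, 54.8 and 48.7 FPKM in BM on days 1, 3, 5 and 7, and 27.7, 37.7, 40.7 and 38.3 FPKM in C. With bFGF it was 33.8, 27.0, 19.2 and 22.4 FPKM in B and 29.5, 29.3, 18.0 and 18.0 FPKM in BC. From day 3 on, the highest value with bFGF (29.3 FPKM) was under the lowest without it (37.7 FPKM), while on day 1 the media overlapped. The log2 fold change over days was -0.42 ± 0.121 (adjusted p = 0.00814), with 0.15 ± 0.106 on day 1 (0.392), -0.42 ± 0.107 on day 3 (0.00598), -0.87 ± 0.108 on day 5 (1.08e-05) and -0.55 ± 0.107 on day 7 (0.000477). Without the B library of day 3 the value of that day was -0.25 (adjusted p = 0.0848). The difference between days passed (adjusted p = 0.000493).

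Cdh1 stayed low, but it was the gene with the widest spread. It was 0.06 FPKM on day 0, and in BM it was 0.07, 0.16, 0.79 and 0.84 FPKM on days 1, 3, 5 and 7. In C it reached 0.07, 0.65, 3.22 and 3.07 FPKM. With bFGF it was 0.04, 0.10, 0.06 and 0.39 FPKM in B and 0.08, 0.07, 0.01 and 0.09 FPKM in BC. The late C libraries are thus alone above 1 FPKM, with 264 counts on day 5 and 255 on day 7, against 65 and 69 in BM, 5 and 32 in B, and 1 and 7 in BC. The gene lies at chr8:106603350-106670247.

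Scaled to library totals, Cdh1 in C over BM was 1.01 on day 1 (95% exact interval 0.27 to 3.78), 3.99 on day 3 (2.14 to 7.99), 4.06 on day 5 (3.09 to 5.42) and 3.66 on day 7 (2.79 to 4.84). In the presence of bFGF the same step, BC over B, was 2.34 on day 1 (0.534 to 14.0), 0.753 on day 3 (0.215 to 2.47), 0.201 on day 5 (0.00425 to 1.80) and 0.222 on day 7 (0.0825 to 0.511). The day 7 ratios thus lay on opposite sides of 1. These intervals compare single libraries and cover counting error only. In the fit with no filter, the bFGF log2 fold change of Cdh1 over days was -2.37 ± 0.631 (adjusted p = 0.00672, where 46.5% of 18700 genes passed). That for CHIR99021 was 0.86 ± 0.603 (adjusted p = 0.882, where 0.118% passed). The interaction of bFGF and CHIR99021 was -2.48 ± 1.08 (adjusted p = 1, where 0.00535% passed) and failed the correction. By day, the bFGF difference in Cdh1 was -5.08 ± 0.848 on day 5 (adjusted p = 4.85e-05, where 51.2% passed) and -2.18 ± 0.623 on day 7 (0.00607, where 53.0% passed). It did not pass on day 1 (where 6.04% did) or day 3 (where 31.7% did), nor between days (adjusted p = 0.0665, where 48.6% passed).

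Among 16 further cadherins, 4 reached 1 FPKM in any library and were tested. Of these, Cdh13 was higher with bFGF, Cdh15 and Cdh24 were lower and Cdh4 did not pass (adjusted p = 0.584). Of all genes tested, 34.6% were higher and 33.9% lower. These cadherins are named after their values were seen, since none kept 1 direction in 8 of 8 pairs. Cdh13 (T-cadherin, held in the membrane by a lipid anchor) went from 25.9 FPKM on day 1 to 68.3, 104 and 93.3 FPKM in B, and from 21.6 to 60.8, 90.4 and 82.3 FPKM in BC. Without bFGF it was 28.0, 50.04, 32.4 and 23.6 FPKM in BM and 22.5, 54.5, 30.2 and 21.2 FPKM in C, so it was above its day 1 value on day 3 in all 4 media and the media parted on days 5 and 7. The bFGF log2 fold change was 1.24 ± 0.321 (adjusted p = 0.00454). Cdh15 (M-cadherin, known from muscle) was 12.9 FPKM in BM and 10.7 FPKM in C on day 7 and at most 0.10 FPKM in any library with bFGF. In BM and C it was at most 0.27 FPKM on days 1 and 3, and 3.34 and 2.73 FPKM on day 5. It thus passed the filter only through BM and C on days 5 and 7, so its direction is not separate support.

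The make-up of the cadherin transcripts therefore changed with the medium. As a share of the summed FPKM of 19 cadherins, which is a per-length measure within each library, Cdh2 led on day 0 with 52.8%, before Cdh13 with 24.7% and Cdh11 with 19.1%. On day 7 Cdh11 led with 49.1% in BM and 46.4% in C. On the same day Cdh13 led with 75.3% in B and 75.4% in BC, where Cdh11 held 4.38% and 5.70%. Cdh1 was at most 2.23% in any library, in C on day 5. The shares have no replicates and no test.

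**Figure D2:**
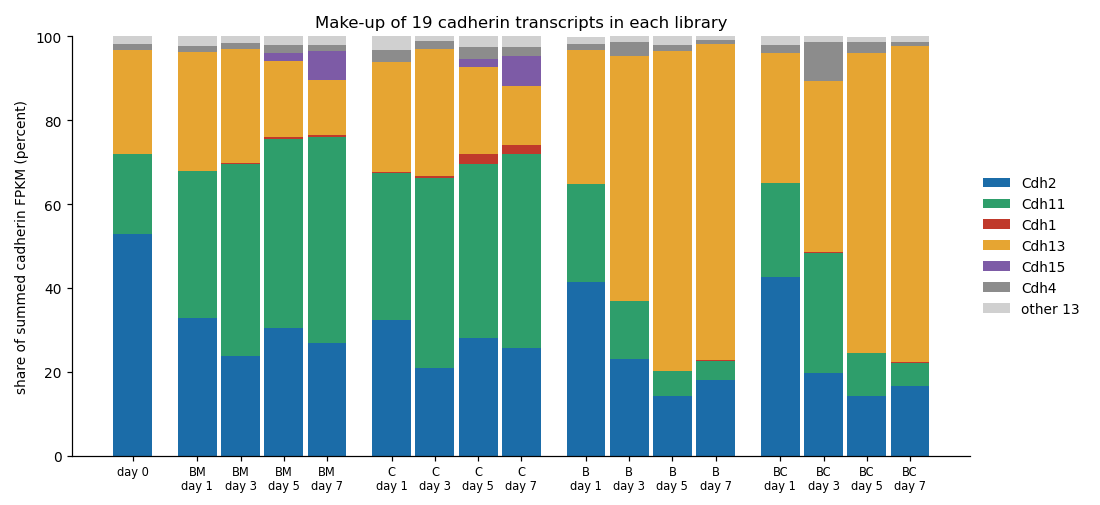
Share of the summed FPKM of 19 cadherins (vertical axis, percent) taken by Cdh2, Cdh11, Cdh1, Cdh13, Cdh15, Cdh4 and the other 13, stacked in 1 bar per library. Cdh11 takes 49.1% in BM on day 7 and Cdh13 takes 75.3% in B on day 7, while Cdh2 takes 52.8% on day 0.

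Of 7 catenins looked up, 4 were tested and all 4 were lower with bFGF (median log2 fold change -0.59), as were 33.9% of all genes tested. Of the other 3, Ctnna2 and Ctnna3 stayed under 1 FPKM in every library. Ctnnd2 (delta-catenin, named after its values were seen) was higher with bFGF in 8 of 8 pairs, at 0.13 to 1.03 FPKM against 0.02 to 0.18 FPKM. Jup (plakoglobin, which binds cadherin tails at adherens junctions and desmosomes) ranged from 21.9 to 73.0 FPKM without bFGF and from 10.2 to 27.6 FPKM with it, a log2 fold change of -1.10 ± 0.0699 (adjusted p = 1.86e-06). Ctnnd1 (p120 catenin) changed by -0.62 ± 0.110 (adjusted p = 0.00058) and Ctnnb1 (beta-catenin) by -0.55 ± 0.0982 (adjusted p = 0.00058). Ctnnb1 did not overlap between the media, with 91.7 to 129 FPKM with bFGF and 135 to 233 FPKM without it. In 4.44% of tested genes the 8 libraries with bFGF were all lower.

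The transcription factors split into those lower and those higher with bFGF. Snai1 was 0.94, 3.70, 4.25 and 6.10 FPKM in BM on days 1, 3, 5 and 7, and 1.08, 3.62, 5.10 and 6.16 FPKM in C. With bFGF it was 0.39, 1.52, 1.25 and 0.81 FPKM in B and 0.46, 3.22, 2.24 and 1.61 FPKM in BC. All 16 values were above the 0.28 FPKM of day 0. Counts were few, at 9 on day 0 and 12 and 14 in B and BC on day 1. In FPKM, Snai1 was lower with bFGF in 8 of 8 pairs. Relative to the median gene it was lower by -0.04 (BC over C on day 3) to -1.42 (B over BM on day 7). The log2 fold change was -1.15 ± 0.206 over days (adjusted p = 0.000607), -1.0 ± 0.277 on day 5 (0.00572) and -1.83 ± 0.286 on day 7 (7.75e-05), and days 1 and 3 did not pass (0.0835 and 0.0946). Without the B library of day 5 the value of that day was -0.80 (adjusted p = 0.0592), without BC day 3 the day 3 value was -1.01 (0.0224), and without B day 3 the day 1 value was -1.20 (0.0487). After quantile normalization of log2(FPKM + 1) the day 5 value was -0.31 and did not pass by limma (adjusted p = 0.106). The day 3 value passed in all 3 limma alternatives (0.027, 0.0447 and 0.045) and the day 1 value with the smaller pseudocount of 0.1 (0.0338). Whether the Snai1 difference varies between days did not pass (adjusted p = 0.0675), and passed by limma on the FPKM as deposited (0.00228, and 0.0115 with the smaller pseudocount) and without any 1 of BM day 3, B day 3, BC day 7 or C day 7 (0.0169 to 0.0489).

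Zeb1 was 14.5, 25.7, 25.6 and 27.2 FPKM in BM and 13.3, 25.0, 25.6 and 28.0 FPKM in C. It was 10.8, 15.6, 10 and 8.41 FPKM in B and 11.1, 16.6, 14.7 and 8.23 FPKM in BC. The 2 media without bFGF ran almost together, and both with bFGF lay under the day 0 value of 12.8 FPKM on days 1 and 7. On day 7 the median gene was also lower, at 3.36 in B and 3.30 in BC on the log2(FPKM + 1) scale, against 3.72 on day 0. On day 1 the median gene was higher than on day 0, at 3.85 in both B and BC. In FPKM, Zeb1 was lower with bFGF in 8 of 8 pairs, by -0.24 to -1.06 relative to the median gene. The log2 fold change was -0.66 ± 0.116 (adjusted p = 0.000576). By day it was -0.27 ± 0.127 on day 1 (0.200), -0.56 ± 0.125 on day 3 (0.00275), -0.62 ± 0.126 on day 5 (0.000725) and -1.19 ± 0.128 on day 7 (3.02e-06), and days differed (adjusted p = 0.00389). Without B day 5 the day 5 value was -0.36, and without either B or BC of day 5 the day 1 value of -0.27 passed (adjusted p = 0.0428).

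Zeb2 was 13.5, 14.8, 16.7 and 16.8 FPKM in BM and 13.8, 16.8, 17.1 and 16.2 FPKM in C. It was 14.0, 13.3, 7.74 and 8.97 FPKM in B and 13.8, 12.6, 11.6 and 7.81 FPKM in BC. On day 1 the 4 media lay between 13.5 and 14.0 FPKM and they separated later. The log2 fold change was -0.33 ± 0.103 over days (adjusted p = 0.0126), -0.53 ± 0.137 on day 5 (0.00351) and -0.57 ± 0.137 on day 7 (0.00222). The day 5 value was -0.28 without B and -0.82 without BC of that day. The difference between days (adjusted p = 0.028) was lost without any 1 of 8 libraries (adjusted p up to 0.106, without B day 1), namely the 4 of day 1, BM and C of day 5, and BM and BC of day 7, and after quantile normalization (0.165). The day 3 difference of -0.31 (adjusted p = 0.0771) passed without B or BC of day 5 (0.0138). Strand of counting is not given in the sources used here, and Zeb2 and Zeb1 overlap the non-coding genes Zeb2os and Gm10125, whose reads could then not be told apart from theirs.

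Twist1 went the other way. It was 34.6, 33.5, 35.6 and 31.1 FPKM in BM and 46.3, 38.2, 37.7 and 36.7 FPKM in C. With bFGF it was 31.8, 42.6, 42.9 and 46.4 FPKM in B and 35.9, 49.9, 48.2 and 65.9 FPKM in BC. Its highest value, in BC on day 7, compares with 29.8 FPKM on day 0. The bFGF log2 fold change was 0.58 ± 0.158 over days (adjusted p = 0.00608), and by day it was -0.16 ± 0.111 (0.373), 0.46 ± 0.111 (0.00431), 0.76 ± 0.111 (4.98e-05) and 1.26 ± 0.112 (5.45e-07) on days 1, 3, 5 and 7. Days differed (adjusted p = 5.18e-05). Twist1 lies at chr12:33957671-33959831.

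Snai2 fell with time in every medium and its bFGF difference depended on the scale. It was 24.0, 11.2, 9.06 and 8.24 FPKM in BM and 20.7, 11.8, 7.19 and 6.86 FPKM in C, against 30.4, 17.1, 7.54 and 7.63 FPKM in B and 30.4, 20.5, 8.31 and 7.22 FPKM in BC. The media with bFGF were higher on days 1 and 3 and mingled with the others on days 5 and 7. On edgeR's scale the log2 fold change was 0.57 ± 0.086 over days (adjusted p = 0.000259), 0.81 ± 0.132 on day 3 (0.000338) and 0.52 ± 0.141 on day 7 (0.00473). On the FPKM as deposited it was -0.03 on day 5 and -0.02 on day 7 (limma on log2(FPKM + 1), adjusted p = 0.860 and 0.905), because there the median tested gene lies lower with bFGF by -0.41 on day 5 and -0.48 on day 7. That shift is -0.25 over all days, and the edgeR values are relative to it. Over days, the Snai2 value was 0.27 by limma with the smaller pseudocount of 0.1 (adjusted p = 0.0509). The day 1 value of 0.52 (adjusted p = 0.0237) was lost without any 1 library of that day (0.102 to 0.220), the day 5 value of 0.41 (0.0179) without C or BC of day 5 (0.24 and 0.32, adjusted p = 0.209 and 0.118), and the day 7 value without C day 7 (0.38, adjusted p = 0.0663). The day 1 value was also lost in the 3 limma alternatives (0.0552 to 0.0836), and the day 5 value with a minimum mean FPKM of 5 (0.29, 0.0837). Whether the difference varies between days did not pass by edgeR (adjusted p = 0.262), where day 7 minus day 1 was 0.00, but passed by limma on the FPKM as deposited, where it was -0.44 (0.00881), or -0.46 with the smaller pseudocount (0.0144).

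**Figure D3:**
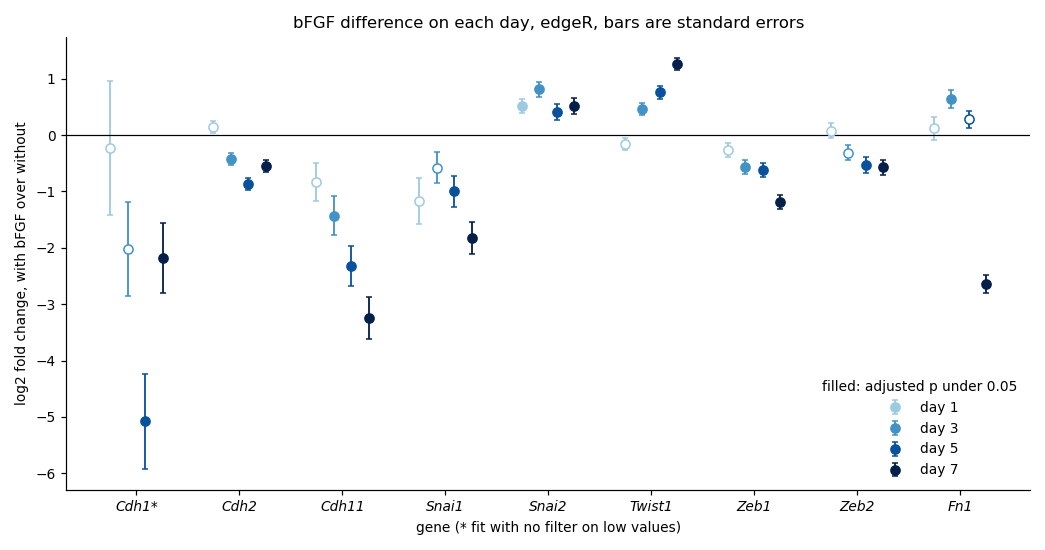
Log2 fold change with bFGF over without on days 1, 3, 5 and 7 (light to dark) for the 9 genes, with standard errors, filled where the adjusted p is under 0.05. Cdh11 runs from -0.83 on day 1 to -3.24 on day 7, Twist1 from -0.16 to 1.26, and Fn1 stands at 0.64 on day 3 and -2.64 on day 7; Snai2 is above 0 on this scale but at -0.02 on day 7 on the FPKM scale.

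Fn1 differed most on day 7. It was 0.35 FPKM on day 0, and 0.68, 2.05, 4.8 and 23.1 FPKM in BM and 0.72, 1.67, 3.63 and 15.3 FPKM in C on days 1, 3, 5 and 7. With bFGF it was 0.83, 2.64, 3.62 and 2.09 FPKM in B and 0.63, 2.66, 3.78 and 2.14 FPKM in BC. The media overlapped on days 1 and 5, those with bFGF were both higher on day 3, and on day 7 those without it were far above. The log2 fold change was 0.12 ± 0.203 on day 1 (adjusted p = 0.738), 0.64 ± 0.166 on day 3 (0.00688), 0.28 ± 0.156 on day 5 (0.121) and -2.64 ± 0.162 on day 7 (2.85e-08), and days differed (adjusted p = 1.09e-06). Averaged over days it was -0.34 ± 0.394 (adjusted p = 0.455). The day 3 value was 0.59 without C day 3 (adjusted p = 0.0517) and 0.36 by limma on log2(FPKM + 1) (0.0505). The day 5 value was -0.14 on that FPKM scale (0.372) and 0.57 after quantile normalization of it (0.00325), so its direction depended on the scaling. Fn1 lies at chr1:71585473-71653280.

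Counts by day are to be read against the background. On day 1, 1 of the 8 genes passed where 10.7% of all genes did. On day 3 it was 6 of 8 (50.4%), on day 5 7 of 8 (75.8%) and on day 7 8 of 8 (78.4%). For the test between days it was 6 of 8, where 76.3% of all genes passed. None of the 8 genes separated all libraries with bFGF from all those without, as 1.39% of tested genes did with bFGF higher and 4.44% with bFGF lower. On days 3 to 7, a range chosen after the values were seen, Cdh2, Cdh11, Snai1, Zeb1 and Zeb2 lay wholly lower in FPKM with bFGF, as did 29.7% of tested genes, and Twist1 wholly higher, as did 11.9%.

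The second question was how the genes changed between days 1 and 7 within each kind of medium. Without bFGF, Fn1, Snai1, Cdh11, Zeb1 and Cdh2 rose and Snai2 fell, 6 of 8 where 63.8% of all genes passed (32.3% higher and 31.5% lower). The log2 changes were 4.76 ± 0.184 for Fn1 (adjusted p = 7.72e-09), 2.59 ± 0.292 for Snai1 (9.86e-06), 1.26 ± 0.339 for Cdh11 (0.00607), 0.96 ± 0.126 for Zeb1 (3.3e-05), 0.50 ± 0.106 for Cdh2 (0.0014) and -1.59 ± 0.135 for Snai2 (9.76e-07). The Cdh11 rise did not pass without C day 1 (1.07, adjusted p = 0.0644) or without BM day 7 (0.95, 0.0714). Twist1 (-0.27, adjusted p = 0.051) passed with no filter (-0.37, 0.0131) and when any 1 of 10 other libraries was left out (0.0157 to 0.0401), and Zeb2 (0.31, 0.0623) without B or BC of day 5 (0.0109).

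With bFGF, Fn1, Snai1 and Twist1 were higher on day 7 than on day 1, and Snai2, Cdh11 and Zeb2 were lower. These were 6 of 8, where 75.3% of all genes passed (35.8% higher and 39.5% lower). Fn1 was highest on day 5 (3.62 FPKM in B and 3.78 in BC) and lower on day 7 (2.09 and 2.14). Snai1 was highest on day 3 (1.52 and 3.22 FPKM) and lower on day 7 (0.81 and 1.61). Its counts in B and BC were 12 and 14 on day 1 and 24 and 47 on day 7. The log2 changes were 2.0 ± 0.184 for Fn1 (adjusted p = 9.74e-07), 1.93 ± 0.389 for Snai1 (0.000652), 1.16 ± 0.111 for Twist1 (1.37e-06), -1.59 ± 0.135 for Snai2 (4.87e-07), -1.15 ± 0.355 for Cdh11 (0.0107) and -0.34 ± 0.137 for Zeb2 (0.039). Cdh2 was at -0.20 ± 0.107 (adjusted p = 0.108) and passed without B or BC of day 3 (0.0301 and 0.0461). It also passed in 5 of 6 other alternatives, at -0.63 by limma on log2(FPKM + 1) (0.000339), -0.65 with the smaller pseudocount (0.000555), -0.29 after quantile normalization (0.0488) and -0.28 with no filter or a minimum mean FPKM of 5 (0.0445 and 0.0366), but not by DESeq2 (-0.16, 0.209). Zeb1 was at 0.05 ± 0.129 (0.760) here, and at -0.36 on the FPKM scale (adjusted p = 0.0208). The Cdh11 fall did not pass without B day 1 (-0.94, 0.0713) or B day 7 (-1.07, 0.0747), nor the Zeb2 fall without B day 1, BC day 1 or BC day 7 (0.130, 0.0596 and 0.260). After quantile normalization neither the Cdh11 fall (-0.85, 0.0538) nor the Zeb2 fall (-0.14, 0.318) passed, and the Zeb2 fall did not pass by DESeq2 (-0.30, 0.0651). Cdh1, in the fit with no filter, rose by 4.50 ± 0.742 without bFGF (adjusted p = 6.72e-05, where 41.6% of genes passed) and by 2.55 ± 0.949 with it (0.0323, where 49.4% passed), the latter on 3 and 7 counts (B and BC) on day 1 and 32 and 7 on day 7.

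**Figure D4:**
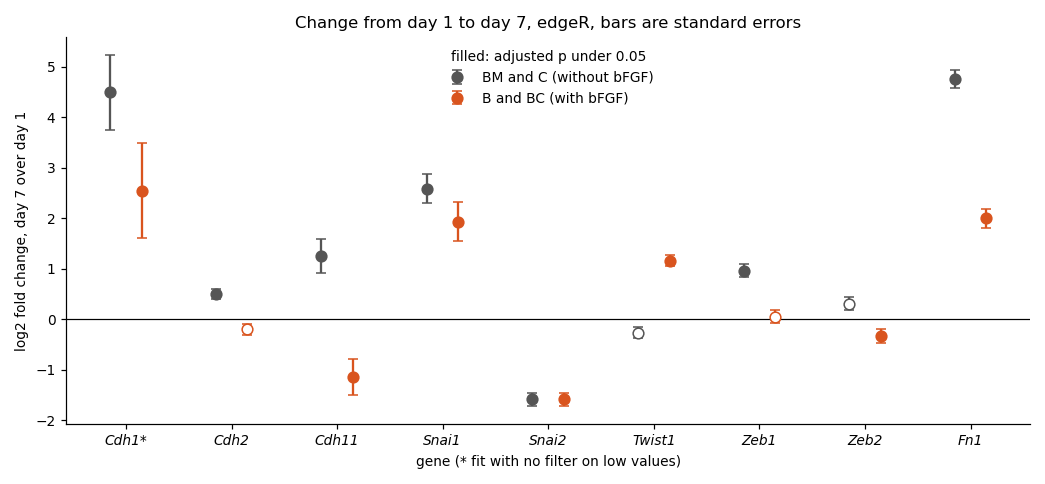
Log2 fold change from day 1 to day 7 for the 9 genes in media without bFGF (grey) and with bFGF (orange), with standard errors, filled where the adjusted p is under 0.05. Fn1 rises by 4.76 without and 2.0 with bFGF, Cdh11 stands at 1.26 and -1.15, Twist1 at -0.27 and 1.16, and Snai2 at -1.59 in both.

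The third question was the effect of CHIR99021. None of the 8 genes passed over days 1 to 7, where 0.337% of all genes did by edgeR, and none passed by DESeq2 or limma. At an unadjusted p under 0.05 there was 1, Snai1, with 0.45 ± 0.202 (adjusted p = 0.485). Twist1 was higher with CHIR99021 in 8 of 8 pairs, by 0.25 ± 0.14 on the log2(FPKM + 1) scale (mean and SD over the pairs), and its fitted change was 0.28 ± 0.155 (adjusted p = 0.626). Cdh2 was lower in 7 of 8 pairs, with a fitted change of -0.21 ± 0.120 (adjusted p = 0.630). Fn1 was at -0.23 ± 0.364 (adjusted p = 0.943), and Snai2, Zeb1, Zeb2 and Cdh11 had fitted changes between -0.05 and 0.08. The interaction of bFGF and CHIR99021 passed for none of the 8, where 0.00887% of all genes passed, with Cdh11 at 0.75 ± 0.593 and Snai1 at 0.71 ± 0.369 (adjusted p = 1 for each), and 0 of the 8 had an unadjusted p under 0.05. Standard errors of this size leave room for differences that these libraries could not show.

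Lists of related genes are given by their counts in the bFGF comparison, beside 34.6% higher and 33.9% lower of all genes. The filter is a mean over all media, so a gene low in 1 kind of medium could pass through the other. Col1a1 and Itgb8 below passed through the media without bFGF, and Foxc2 through those with it. Their directions are therefore not separate support. Of 12 related transcription factors, 10 were tested, 4 were higher and 4 lower (median -0.08). Klf4, a factor of epithelial and pluripotent cells, changed by 1.41 ± 0.214 (adjusted p = 0.000262), and the forkhead factors Foxc2 and Foxc1, active in mesenchyme, by 1.27 ± 0.144 (5.65e-05) and -1.17 ± 0.203 (0.00051). Of 19 mesenchymal genes, 14 were tested, 3 were higher and 8 lower (median -0.88). Acta2 (smooth muscle actin) ranged from 22.3 to 376 FPKM without bFGF and from 1.14 to 15.4 FPKM with it (log2 fold change -4.68 ± 0.656, adjusted p = 0.000171). Postn (periostin, a matrix protein) changed by -4.34 ± 0.726 (0.000429) and Col1a1 (type I collagen) by -3.59 ± 0.727 (0.00113). The 3 higher genes, named after their values were seen, were S100a4 (2.0 ± 0.385, 0.000864), Vim (vimentin, 1.11 ± 0.260, 0.00266) and Tnc (0.46 ± 0.113, 0.0036). The list thus did not move one way. The epithelial list had 2 tested genes, of which Tjp1 (ZO-1) was lower by -0.97 ± 0.173 (0.00059).

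Of 12 fibronectin receptor genes, 8 were tested, 3 were higher and 2 lower (median 0.14). Itga5, whose product pairs with Itgb1 as the main fibronectin receptor, ranged from 34.8 to 53.6 FPKM without and from 37.5 to 78.0 FPKM with bFGF (log2 fold change 0.84 ± 0.134, adjusted p = 0.000338). Itgb8, which forms an integrin that activates TGF-beta, was lower (-2.15 ± 0.362, 0.000449), as was Itgb5 (-0.38 ± 0.116, 0.0109). All 14 TGF-beta pathway genes, from a pathway known to raise Snai1 and Fn1 in many cells, were tested, and 4 were higher and 6 lower (median -0.09). The ligands Tgfb3 and Tgfb2 were lower (-1.81 ± 0.279, adjusted p = 0.000288, and -1.06 ± 0.227, 0.00153), and so was the receptor Tgfbr2 (-1.49 ± 0.266, 0.000607). Tgfb1, named after its value was seen, was higher with bFGF (0.56 ± 0.102, 0.000653). The ligands therefore differed in direction.

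Markers of fibroblasts and pericytes, and of the retinal progenitors themselves, moved with bFGF too. Of 7 fibroblast and pericyte markers, 4 were tested and all 4 were lower (median -2.16), with a summed level of 15.9 to 162 FPKM without and 7.80 to 38.7 FPKM with bFGF. Col1a1 and Dcn were at most 1.53 and 1.71 FPKM with bFGF and reached 45.2 and 9.61 FPKM without it. Both passed the filter through the media without bFGF, so their direction is not separate support. Pdgfrb changed by -2.27 ± 0.353 (adjusted p = 0.000297) and Dcn by -2.04 ± 0.353 (0.000506), while Lum, Rgs5 and Cspg4 were under 1 FPKM in every library. Of 8 retinal progenitor markers, 5 were tested and 4 were lower (median -0.50), with Pax6 at -1.94 ± 0.266 (0.000148), the same log2 value as Cdh11, and Six3 at -0.50 ± 0.0957 (0.00085) and Sox2 at -0.48 ± 0.101 (0.0014). Their summed level was 149 to 404 FPKM without and 96.1 to 207 FPKM with bFGF. The retinal progenitor list is the one used above to check the identity of the cultured cells. Whether shares of cell types had a part in the changes of the 9 genes was not tested.

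**Figure D5:**
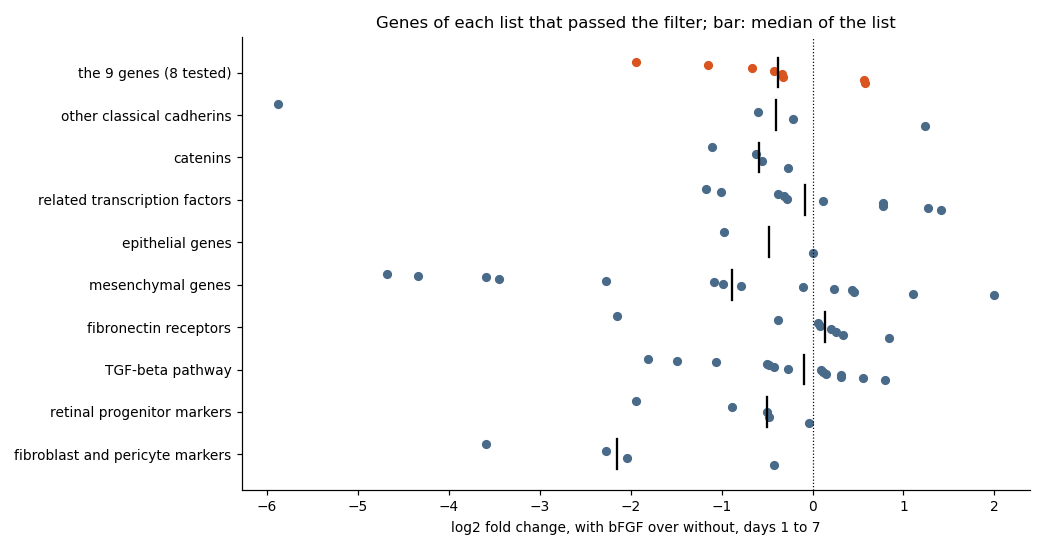
Log2 fold change with bFGF over without, days 1 to 7 (horizontal axis), for each gene that passed the filter, by list, with the median of each list as a bar. The 8 tested genes of the set lie between -1.94 and 0.58 with a median of -0.38, and the mesenchymal list reaches -4.68.

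The genes whose levels ran most like each of the 8 over the 17 libraries were found by Pearson correlation of log2(FPKM + 1), given as a description, since the libraries share treatments and days. For Cdh11 they were Gpd1l and Rbms3 (r = 0.984 and 0.983), for Snai1 Fgf11 and Serinc5 (0.985 and 0.979), and for Zeb2 Zfp445 and Wdr44 (0.971 and 0.965). For Zeb1 they were Psd and the ligand gene Tgfb3 (0.982 and 0.98), which is also a gene of the TGF-beta list. Cdh2 ran with Cep63 and Jrk (0.961 and 0.960), Snai2 with Pck2 and Tab2 (0.966 and 0.957), Twist1 with Pkig and Hspb11 (0.912 and 0.895) and Fn1 with Angpt4 and the Notch ligand gene Jag1 (0.929 and 0.912). The likeness was closest for Snai1 and loosest for Twist1.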

How the data were processed

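RNA-seq was read from 17 libraries of mNRPCs, 1 per treatment and day. For each gene the authors deposited expected counts, which are model estimates with decimals, and FPKM. Listing starts at FPKM 0.01, and missing genes were set to 0. The paper names Bowtie 2 and eXpress, and the submitters' processing notes name mm10, Bowtie2 and RSEM. These differ in the counting tool, and the files were used as deposited. Poly-A RNA was sequenced on the BGISEQ-500.

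Rounded expected counts went into the quasi-likelihood F test of edgeR 4.0.16 (R 4.3.3), with TMM scaling, Benjamini-Hochberg adjustment, a threshold of 0.05 and a mean FPKM of at least 1. One model held bFGF, CHIR99021 and day, another added their interaction, and another fitted bFGF within each day with CHIR99021 as a term. The coefficient of variation was 24.7% in the first and 10% in the last, and it holds departures from the model. SE is the absolute log2 fold change over the square root of F. Alternatives were DESeq2 1.42.0, limma 3.58.1 on log2(FPKM + 1) or log2(FPKM + 0.1), quantile normalization, no filter, a minimum mean FPKM of 5, leaving out day 1, no day term, day 7 alone, and leaving out each library. Scripts were tested on simulated data. The 9 genes, the lists and the tests were chosen with earlier results of these data known. Named genes were the 9, the 2 genes most correlated with each, and from each list up to 3 past the threshold with the largest change and 1 direction in 8 of 8 pairs, and exceptions are stated. Coordinates are those of RefSeq on GRCm38.p6 (mm10). One marker gene of the retinal progenitor list is not reported here.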

Additional observations from a re-analysis of the deposited data

Results flagged for a closer look

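The bFGF difference varied between days for 6 of the 8 tested genes, by edgeR's joint test over the days (adjusted p between 1.09e-06 and 0.028, where 76.3% of all genes passed). The log2 fold change on day 7 minus that on day 1 was -2.76 for Fn1, -2.41 for Cdh11, -0.92 for Zeb1, -0.70 for Cdh2, -0.65 for Zeb2 and 1.43 for Twist1. The Zeb2 value lost its call without any 1 of 8 libraries (adjusted p 0.0505 to 0.106) and after quantile normalization (-0.39, 0.165), and the other 5 kept theirs there and without each of the 16. With 1 library per treatment and day, single libraries could not be judged against others of their group.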

How the results depend on the processing

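The 7 calls for bFGF over days 1 to 7 held without each of the 16 libraries and without day 1, and 5 of them held with no day term, where 4779 genes passed but Snai1 (-1.18, adjusted p = 0.0539) and Snai2 (0.58, 0.181) did not. None of the 8 genes passed for CHIR99021 in any alternative, while the number of genes passing went from 38 to 281 by DESeq2, 22 with no filter, 69 after quantile normalization, 24 without day 1 and 1 to 28 without a single library. For the interaction it was 0 to 5. Of the values of single genes, 459 kept direction and side of the threshold in the alternatives other than leaving out a library, 15 gained a call, 13 lost one and 13 changed sign; without single libraries these numbers were 1197, 26, 25 and 32. The sign changes by scale were those of Snai2 on day 5 (-0.03 by limma with either pseudocount) and day 7 (-0.02 with either), of Fn1 on day 5 (-0.14, and -0.17 with the smaller pseudocount), and of Zeb1 from day 1 to day 7 with bFGF (-0.36 and -0.40, and -0.03 with no filter or a minimum mean FPKM of 5). The Snai2 difference between day 7 and day 1, at 0.00, was 0.04 by DESeq2, 0.02 with no filter and 0.21 after quantile normalization, none of them past the threshold, and -0.44 and -0.46 by limma with the larger and smaller pseudocount, both past it (0.00881 and 0.0144). Values that changed sign without a single library were none of them past the threshold: Cdh11 (-0.10 to 0.29) and Fn1 (-0.41 to 0.12) for CHIR99021; Twist1 (-0.21 to 0.27), Zeb2 (-0.12 to 0.13) and Fn1 (-0.48 to 0.81) for the interaction; Snai2 between days (-0.11 to 0.14); Zeb1 with time under bFGF (-0.01 to 0.05); and Fn1 on day 1 (-0.06 to 0.25). The causes were not tested. Among the most alike genes, Jrk for Cdh2 and Jag1 for Fn1 ranked 15 with the smaller pseudocount. Without replicates no alternative measures the spread between cultures. Cdh1, on 1 to 264 counts, and Snai1, on 9 to 185 counts, are limited by depth. No paired analysis was possible by replicate number because each treatment and day has 1 library, and matching by day and CHIR99021 is in the fits as terms.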

Other observations

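Marker lists of further cell types were read for the same libraries. Of 7 Mueller glia and astrocyte markers, 3 were tested, and with bFGF Glul (glutamine synthetase) was higher (log2 fold change 0.70 ± 0.108, adjusted p = 0.000288), Vim was higher and Apoe was lower (-0.68 ± 0.17, 0.00384), while Gfap, Rlbp1 and Slc1a3 stayed under 1 FPKM in every library. These 3 and the genes that follow were named after their values were seen, except Cd68 and Syn1. Of 7 neuron markers, 2 were tested, and Syn1 (synapsin 1) was higher with bFGF (1.37 ± 0.222, 0.000368), at 1.16 to 2.27 FPKM against 0.50 to 1.47 FPKM, while Tubb3 did not pass (0.31 ± 0.230, 0.239). Syn1 passed the filter through the media with bFGF, so its direction is not separate support.

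The lysosomal membrane gene Cd68, in the microglia and macrophage list, was 2.03, 36.8, 36.2 and 79.8 FPKM in B on days 1, 3, 5 and 7, and 1.49 to 3.69 FPKM in the media without bFGF (3.27 ± 0.558, adjusted p = 0.000479). Aif1, Csf1r, Ptprc and Itgam, which define microglia, stayed under 1 FPKM in every library. Cx3cr1, a chemokine receptor gene of microglia, was 1.03 FPKM in B and 2.25 FPKM in BC on day 7 against 0.08 FPKM in both BM and C, and was higher with bFGF in 7 of 8 pairs. The summed level of the 6 genes of this list was 1.72 to 4.22 FPKM without and 2.20 to 81.1 FPKM with bFGF, and its part in the changes of the 9 genes was not tested. The summed level of 6 endothelial markers was at most 1.34 FPKM and that of 7 retinal pigment epithelium markers at most 2.05 FPKM in any library.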
